A study of Mus musculus with 2 samples.

Results

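Open chromatin was described around Tnf, Lta and Ltb, 3 neighbouring cytokine genes on mouse chromosome 17, in T-helper 1 cells. All open regions that overlapped a gene body or the 20 kb on either side were taken, by position and not by strength. That window ran from 35174439 to 35225351 (mm10, 50.9 kb) and held 15 regions in replicate 1, of 98786 on the assembled chromosomes, and 15 in replicate 2, of 91403. The data were ATAC-seq, in which a transposase inserts adapters into accessible DNA, from T-helper 1 primary cells of the strain C57BL/6NJ. There was 1 group with 2 biological replicates and no other condition. The labels give both replicates 1 donor identifier, no sex and no age, and name no agent, allele or time, so whether they came from separate animals is not known. The labels link a protocol for differentiating CD4+ T cells, whose content was not used here. Region names inside the lists carry a time in hours and the words ASTARR, insert and masked, and what these mean for the libraries is not stated. Paired values below give replicate 1 first.

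The 3 genes encode ligands of the tumour necrosis factor superfamily and lie in the major histocompatibility complex. Tnf encodes TNF, an inflammatory cytokine made as a membrane protein and released by cleavage. Lta encodes lymphotoxin-α, which is secreted as a homotrimer that binds the same receptors as TNF, and Ltb encodes lymphotoxin-β, which anchors lymphotoxin-α at the cell surface in a heterotrimer that binds its own receptor. TNF and lymphotoxin-α are classical products of T-helper 1 cells, and transcription of these genes in lymphocytes is known to involve NF-kB and, for Tnf after T cell receptor stimulation, NFAT factors. In the annotation (GENCODE M21) Tnf spans 35199381 to 35202007 and Lta 35203165 to 35205351, both on the minus strand. Ltb spans 35194439 to 35196320 on the plus strand, so that Ltb and Tnf are transcribed towards each other.

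The bases before each start are shown first, because the open regions of the members differed in how much of them they covered. They come from RefSeq's promoter table (GRCm38.p6, which has the chromosomes of mm10), where all 3 genes matched by symbol. They are written in the direction of the gene and end just before the GENCODE start. Capitals mark matches, on either strand, to NF-kB (the decamer consensus), NFAT (GGAAA), AP-1 (TGANTCA), a CRE-like element (TGANNTCA), ETS (CCGGAAG), Runx (TGTGGT), T-box (GGTGTGA), STAT (TTCNNNGAA), IRF (GAAANNGAA) and the TATA box (TATAAA). NFAT letters can lie inside an NF-kB or STAT match. The 250 bases before Tnf are chr17:35202008-35202257 (minus strand), the 250 before Lta are chr17:35205352-35205601 (minus strand), and the 182 before Ltb are chr17:35194257-35194438 (plus strand).
Tnf: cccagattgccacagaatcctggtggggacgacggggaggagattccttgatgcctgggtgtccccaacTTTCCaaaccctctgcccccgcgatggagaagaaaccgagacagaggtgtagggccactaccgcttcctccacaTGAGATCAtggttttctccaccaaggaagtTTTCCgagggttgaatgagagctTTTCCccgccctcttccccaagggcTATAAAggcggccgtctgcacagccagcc
Lta: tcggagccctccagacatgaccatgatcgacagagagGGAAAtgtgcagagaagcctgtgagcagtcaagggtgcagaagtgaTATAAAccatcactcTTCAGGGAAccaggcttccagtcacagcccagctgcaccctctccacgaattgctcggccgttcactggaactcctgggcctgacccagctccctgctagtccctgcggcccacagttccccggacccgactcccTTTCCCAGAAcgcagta
Ltb: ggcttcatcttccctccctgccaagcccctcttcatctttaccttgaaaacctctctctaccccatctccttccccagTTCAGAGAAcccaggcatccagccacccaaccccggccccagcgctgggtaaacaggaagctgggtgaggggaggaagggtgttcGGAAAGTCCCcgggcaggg

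Before Tnf, TATAAA stood 29 to 24 bases ahead of the start, a position (45 to 16 bases ahead, same strand) at which 2.13% of 32536 promoters in the table hold it. Before Lta the same letters lay farther away, 167 to 162 bases ahead, and the bases before Ltb held none. Tnf had 3 NFAT matches, and GGAAA was present in the 250 bases of 55.7% of all promoters. Ltb had an NF-kB match 19 to 10 bases ahead of its start, against 3.9% of all promoters with one, while neither Tnf nor Lta had one in this window. STAT letters were found before Lta and Ltb and in 7.0% of all promoters. In CpG content the members stood near the middle, with 10, 9 and 6 CpG in the 250 bases of the table for Tnf, Lta and Ltb, against a median of 6. The RefSeq start of Ltb lies 68 bases downstream of the GENCODE start used here.

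All 15 regions of each replicate overlapped a region of the other, pair by pair. Genome-wide this held for 86.6% of replicate 1 regions and 93.0% of replicate 2 regions. Summits, the points of highest pileup, lay 0 to 102 bp apart (median 7). The regions were 6 promoter regions (within 1 kb of an annotated start), 3 exonic, 1 intronic and 5 intergenic ones. The joined regions covered 12765 bp or 25.07% of the window, against 2.63% of the chromosomes, which is 29.46 regions per 100 kb of window against 3.1.

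**Figure D1:**
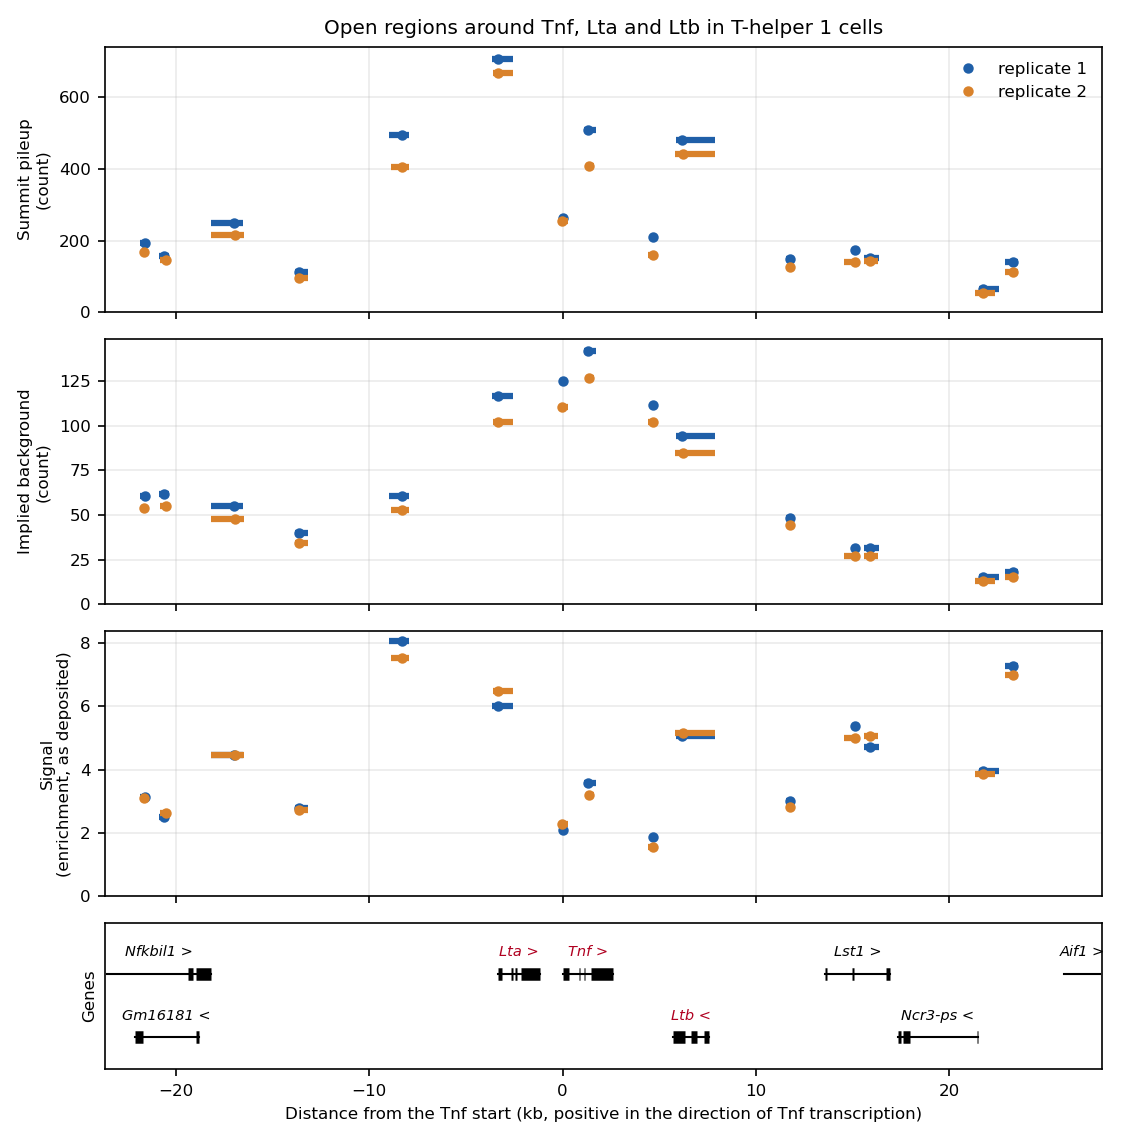
Summit pileup, implied background and signal (vertical axes, from 0) of the 15 regions of each replicate, against distance in kb from the Tnf start, with genes drawn below (thick, exons; > and <, direction of transcription). Bars span the regions and points mark summits. Pileup was highest at the Lta start (708 and 667), while background was highest inside Tnf (142.05 and 126.44), where signal was 3.57 and 3.20.

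Short genes rarely have this many regions around them. Counting the gene with its 20 kb flanks, Tnf and Ltb each had 12 shared regions and Lta had 13. Among 4140 protein-coding genes under 5 kb the median was 2 and the 90th percentile 7, and 1549 of these genes had 0. Only 8 of those genes had 12 or more, and 5 of the 8 (Tnf, Lta, Ltb, Lst1 and Gm16181) lie in the window described here and share regions. The other ones were Gimap9, Snrpd2 and Hoxb8.

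**Figure D2:**
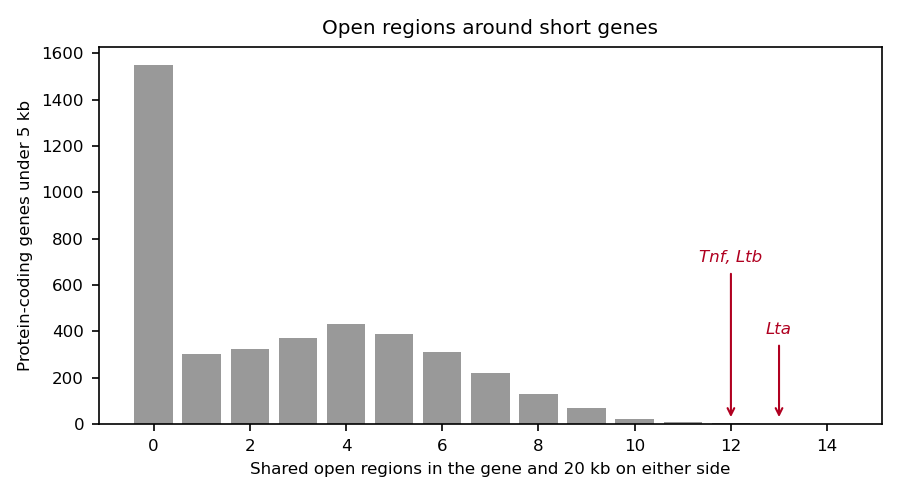
Number of protein-coding genes under 5 kb (vertical axis) by how many shared open regions the gene and its 20 kb flanks held (horizontal axis). Tnf and Ltb (12) and Lta (13) stand in the upper tail, whose highest value is 14.

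Each region carries a signal, which is the authors' enrichment value with no stated reference, and a −log10 p. Read as a fold of the summit over a local background and its Poisson tail, this pair gives the pileup at the summit (the count of stacked reads or fragments) and the background count. Solved in this way the pileup came out whole, within 0.02, in 99.96% and 99.94% of regions. Over all shared regions the median pileup was 87 and 75, the median background 10.85 and 9.56, and the median signal 6.92 and 6.72. Pileup intervals below are exact 95% Poisson intervals and cover counting error only.

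At the start of Tnf a narrow region was open, 347 and 399 bp wide. Its summits lay 2 bp inside the first exon (35202005, 5′ UTR) and 9 bp ahead of the start (35202016). It held 136 bases ahead of the start in both replicates, with the same upstream edge, 35202143, so that the TATAAA letters, the CRE-like match and the nearer 2 NFAT matches lay inside it and the NFAT match 181 to 177 bases ahead lay outside. The pileup was 264 and 254, above 83.07% and 85.41% of shared regions. The background under it was 125.2 and 110.53, however, so that the signal was 2.10 and 2.29, above 1.03% and 1.74% of shared regions. Pileup and signal thus placed the Tnf promoter region at very different ranks, in each replicate.

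A second region inside Tnf was stronger than the promoter region. It spanned 35200281 to 35200911 and 35200403 to 35200803, with summits in the intron before the last exon, 1337 and 1387 bp downstream of the start (exon 4 of 4). It reached into that exon in both replicates and also covered the exon before it in replicate 1. The pileup was 510 (466.7 to 556.2) and 407 (368.4 to 448.5), against 264 (233.1 to 297.8) and 254 (223.7 to 287.2) at the promoter. These intervals do not overlap, and the ratio was 1.93 in replicate 1 and 1.60 in replicate 2. Signal gave the same order, 3.57 and 3.20 against 2.10 and 2.29, and so did −log10 q, 122.8 and 84.3 against 24.8 and 29.0. The bases within 100 bp of the summit of replicate 1 are shown because they hold a pair of AP-1 matches. They come from the same assembly, chr17:35200570-35200770 (minus strand, capitals as above).
Tnf intron: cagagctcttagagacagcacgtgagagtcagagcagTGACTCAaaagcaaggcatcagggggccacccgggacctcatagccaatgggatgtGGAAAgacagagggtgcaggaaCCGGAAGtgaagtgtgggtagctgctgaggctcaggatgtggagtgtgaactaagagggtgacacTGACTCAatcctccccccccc

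Its AP-1 letters, TGACTCA, stood at bases 38 to 44 and 181 to 187. The match at bases 38 to 44 lay more than 100 bp from the summit of replicate 2, so this pair belongs to the replicate 1 window only. Of all shared regions, 26.0% held an AP-1 match in such a window and 3.31% held at least 2. Between the AP-1 matches lay an ETS match (bases 116 to 122), present in 3.6% of shared regions, and an NFAT match. Of the 15 regions this was the only one with an AP-1 match, and the only one with an ETS match, within 100 bp of the summit.

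Lta had the highest pileup of the window. Its region, 35204587 to 35205654 and 35204594 to 35205615, had its summit at the same base in both replicates, 35205344, which is 7 bp inside the first exon (5′ UTR). It held 303 and 264 bases ahead of the start, so that all 250 bases printed above lay inside it. The pileup was 708 (656.8 to 762.1) and 667 (617.3 to 719.6), above 98.38% and 98.88% of shared regions and 2.68 and 2.63 times that of the Tnf promoter region. The background was nearly that of Tnf, 116.83 and 102.13, and the signal was 6.02 and 6.48. In both replicates Lta stood above Tnf by pileup, by signal and by −log10 q (296.5 and 297.3).

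Ltb was covered by the widest region of the window, and the highest point was not at its start. The region spanned 35194151 to 35196138 and 35194143 to 35196201 (1988 and 2059 bp) and thus held nearly the whole gene, with 288 and 296 bases ahead of the start. Its summits lay 1371 and 1343 bp downstream of the start, in coding sequence of the last exon (exon 3 of 3). The pileup there was 480 (438.0 to 524.9) and 441 (400.8 to 484.1), the background 94.2 and 84.78, the signal 5.05 and 5.15 and the −log10 q 171.4 and 160.6. The height at the start of Ltb itself is not given by these values, since a region carries 1 summit only. The summit window is shown because it was by far the richest in CpG, chr17:35195710-35195910 (plus strand). It held none of the motifs put in capitals.
Ltb exon: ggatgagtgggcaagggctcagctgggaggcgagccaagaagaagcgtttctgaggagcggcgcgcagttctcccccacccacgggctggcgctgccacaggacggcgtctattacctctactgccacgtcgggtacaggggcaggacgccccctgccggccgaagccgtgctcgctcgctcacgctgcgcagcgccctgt

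That window held 20 CpG, against a median of 3 over shared regions (percentile 93.7), and its GC content was 68.7% against a median of 49.3%. The other 14 windows held 1 to 9 CpG. It also held an Egr match (GTGGGNG), found in 6 of the 15 regions and in 18.1% of all shared regions.

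Ahead of Tnf and Lta an intergenic region had the highest signal of the window. It lay 8305 and 8306 bp upstream of the Tnf start, which is 4961 and 4962 bp upstream of the Lta start. It spanned 35209954 to 35210978 and 35209936 to 35210898. The pileup was 496 (453.3 to 541.6) and 405 (366.5 to 446.4), and the background, 60.72 and 52.83, was about that of the regions beyond it rather than that of the genes. The signal was therefore 8.05 and 7.54, and −log10 q was 262.8 and 204.7, below that of Lta only. Hypersensitive sites with enhancer activity have been described on both sides of Tnf in mouse T cells, and whether this region is one of them was not tested. The bases around its summit are shown because they hold 1 of the 2 NF-kB matches at summits of the window, chr17:35210212-35210412 (minus strand).
Upstream region: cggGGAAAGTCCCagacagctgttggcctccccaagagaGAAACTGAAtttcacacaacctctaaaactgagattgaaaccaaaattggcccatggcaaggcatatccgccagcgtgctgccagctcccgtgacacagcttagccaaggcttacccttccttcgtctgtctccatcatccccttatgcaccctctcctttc

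The match, GGAAAGTCCC (reverse complement GGGACTTTCC), lay at 35210400 to 35210409, 88 to 97 bp from the summit. The same 10 letters stand 19 to 10 bases ahead of the Ltb start in the sequence printed above. They occurred in the summit windows of 254 of 84380 shared regions (0.3%). An IRF match lay next to it at bases 40 to 48, the only one among the 15 regions, against 8.6% of all shared regions. The other NF-kB match at a summit was at Lta, outside the bases printed, and 4.6% of all shared regions held one.

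Between the end of Tnf and the end of Ltb lay the region with the lowest signal and −log10 q of the window. It spanned 35197188 to 35197433 and 35197201 to 35197603, with the same summit, 35197345, 4662 bp downstream of the Tnf start. Its pileup, 210 and 159, was not the lowest, yet the signal was 1.88 and 1.55, above 0.42% and 0.05% of all shared regions, over a background of 111.42 and 102.07. Its −log10 q was 14.6 and 5.36, which is the largest ratio between replicates among the 15 regions.

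The remaining 9 regions had pileups of 64 to 248 in replicate 1 and 53 to 216 in replicate 2. On the side of Nfkbil1 and Gm16181 there were 4. An intergenic one lay 13652 bp upstream of the Tnf start (signal 2.79 and 2.71), and a wide one of 1634 and 1685 bp, classed as promoter of Gm16181, lay 17008 and 16967 bp upstream (4.45 and 4.47). Another 2 had their summits in introns of Gm16181 and Nfkbil1, which overlap on opposite strands. Of these, 1 was classed as a promoter region of Nfkbil1 (2.5 and 2.63) and 1 reached into an exon of Gm16181 (3.13 and 3.09). Nfkbil1 had 2 promoter regions, and the stronger one, outside the window, had 6.48 and 5.73. On the side of Lst1 there were 5, namely an intergenic one 4179 and 4174 bp upstream of the Ltb start (3.01 and 2.83) and 2 in Lst1 (5.37 and 5.00, and 4.71 and 5.06). Beyond Lst1, a promoter region of the pseudogene Ncr3-ps had 3.94 and 3.88, and an intergenic region 15706 and 15712 bp upstream of the Ltb start had 7.29 and 7.01. Aif1 reaches into the window at that end, and its promoter region, with 9.05 and 8.97, lay outside the window. Lst1, a gene mainly of myeloid cells, had no shared region within 1 kb of a start, so its regions were not classed as promoter regions. The limit was missed narrowly: the nearer region ended at 35187437 in replicate 2, and the gene, on the minus strand, begins at 35188439.

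Across all 15 summit windows (100 bp on either side), most of the 13 motifs searched were found in few regions. NFAT letters were in 7 (46.7%, against 48.5% of all shared regions) and Runx letters in 6 (40.0% against 22.8%), among them all 4 of the regions in Lst1 and beyond it. STAT letters were in 2, at Lta and in the Gm16181 region (13.3% against 8.0%), and T-box letters in 1, in the intron of Nfkbil1 (6.7% against 4.6%). T-bet, the T-box factor that defines T-helper 1 cells, and Runx3 are known to act on cytokine genes in these cells. The other motifs were Sp (GGGCGG, 2 regions, 13.3% against 14.0%), a CTCF core (CCANNAGG, 4 regions, 26.7% against 17.4%), TATA (2 regions, 13.3% against 6.7%) and the CRE-like element (1 region, 6.7% against 11.1%). A match describes letters only and says nothing of binding.

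Background separated the gene cluster from its flanks. From the Ltb start to the Lta start, 5 regions had backgrounds of 94.2 to 142.05 and 84.78 to 126.44, above at least 99.18% and 99.25% of all shared regions. The other 10 had 15.48 to 61.75 and 12.93 to 54.86, so the ranges did not overlap in either replicate. How wide a stretch each background covers is not stated, so the values of these neighbouring regions may not be independent. The commonest background, 6.22 and 5.51, was that of 27.4% and 27.6% of shared regions, and the Tnf promoter region stood 20.1 times above it in both replicates. Pileups of the 5 regions were above 77.67% to 98.38% of shared regions in replicate 1, whereas their signals were above 0.42% to 41.95%.

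**Figure D3:**
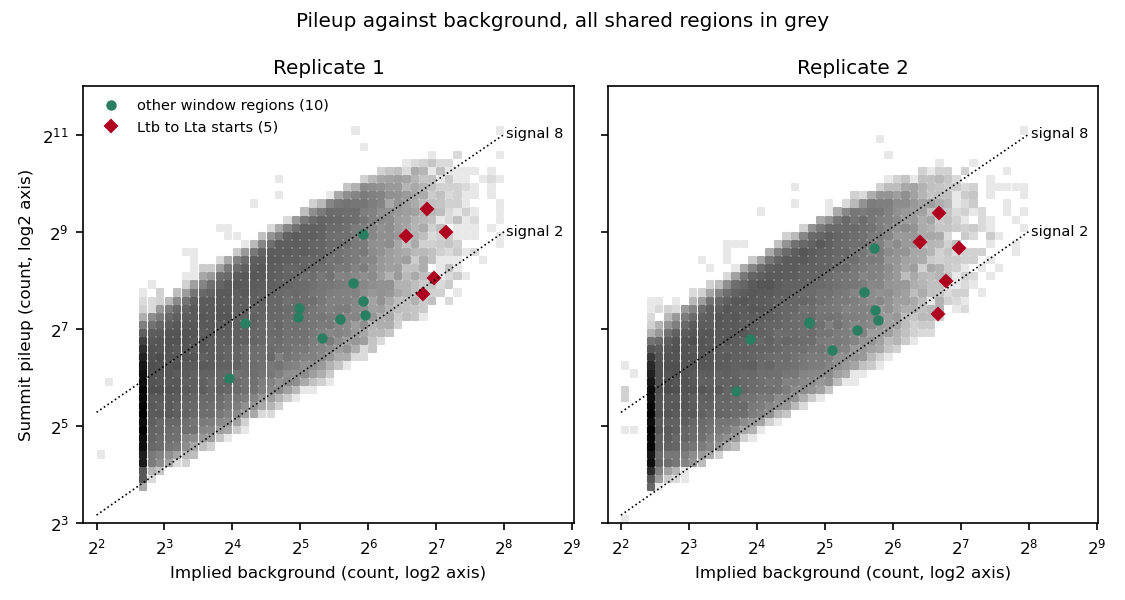
Summit pileup (vertical) against implied background (horizontal), both counts on log2 axes, for each replicate. Grey squares are all shared regions (darker, more regions), diamonds the 5 regions from the Ltb start to the Lta start, circles the other 10 of the window, and dotted lines constant signals of 2 and 8. The diamonds lie at the far right in both panels, and 2 of them, at and downstream of Tnf, lie near the line for a signal of 2.

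The replicates differed by a similar factor at most of the 15 regions. The pileup of replicate 1 divided by that of replicate 2 was 1.04 to 1.32 over the 15 regions. Over all shared regions it had a median of 1.153, and 95% lay between 0.802 and 1.63. Where the pileups of both replicates summed to at least 300, the median was 1.159 and 95% lay between 0.958 and 1.393. The Tnf promoter (1.04) and Lta (1.06) stood at the low end, and the Tnf intron region (1.25) and the region downstream of Tnf (1.32) at the high end. With 1 group of 2 replicates, no test of a difference between conditions was possible.

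Among promoters, the rank of the members depended on the value ranked. An open promoter, a shared region within 1 kb of a start, was present at all 3 members and at 65.9% of 21938 protein-coding genes. Among the open ones Tnf stood at percentile 0.149 by signal and 41.6 by pileup, Ltb at 9.05 and 73.3, and Lta at 14.5 and 91.8 (means of both replicates). A region counted for a promoter with its summit value wherever the summit lay, so the place of Ltb is that of its exon summit and not of its start. By either value Tnf stood below Lta in both replicates. By background the Tnf promoter stood at percentile 99.45. The 5 promoters nearest to that of Tnf in the percentiles of signal, −log10 q and width together were those of Ino80b, Catsperz, Gpsm3, Gpr55 and S100a2 (distances of 0.94 to 2.39 percentile points), with backgrounds of 42.84 to 99.97 in replicate 1, all below that of Tnf.

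Other ligands of the superfamily were mostly open as well. Of 18 ligand genes, the members included, 16 had an open promoter (88.9%, exact 95% binomial interval 65.3 to 98.6), against 65.9% of all protein-coding genes. With the strongest 50000 regions of each list the shares were 50% and 58.7%. Tnfsf13, which encodes the B cell factor APRIL, and Tnfsf18, which encodes GITR ligand, had none. Tnf had the lowest signal of the 16, followed by Tnfsf12 (2.70 and 2.40) and Tnfsf9, which encodes the ligand of 4-1BB (2.96 and 2.58). The highest, by the mean percentile, were Tnfsf13b, which encodes the B cell factor BAFF (12.5 and 13.2), Tnfsf14, which encodes LIGHT (11.2 and 10.4), and Tnfsf10, which encodes TRAIL (9.76 and 10.5). Ranked by the mean pileup percentile instead, Lta was highest, Tnf was the 6th highest of the 16, and Ltb, at its exon summit, stood beside Tnfsf14 (480 and 441 against 493 and 420). Low signal had different make-ups: at Tnfsf12 the pileup was 38 and 28 over a background of 13.45 and 11.1, where Tnf had 264 and 254 over 125.2 and 110.53.

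**Figure D4:**
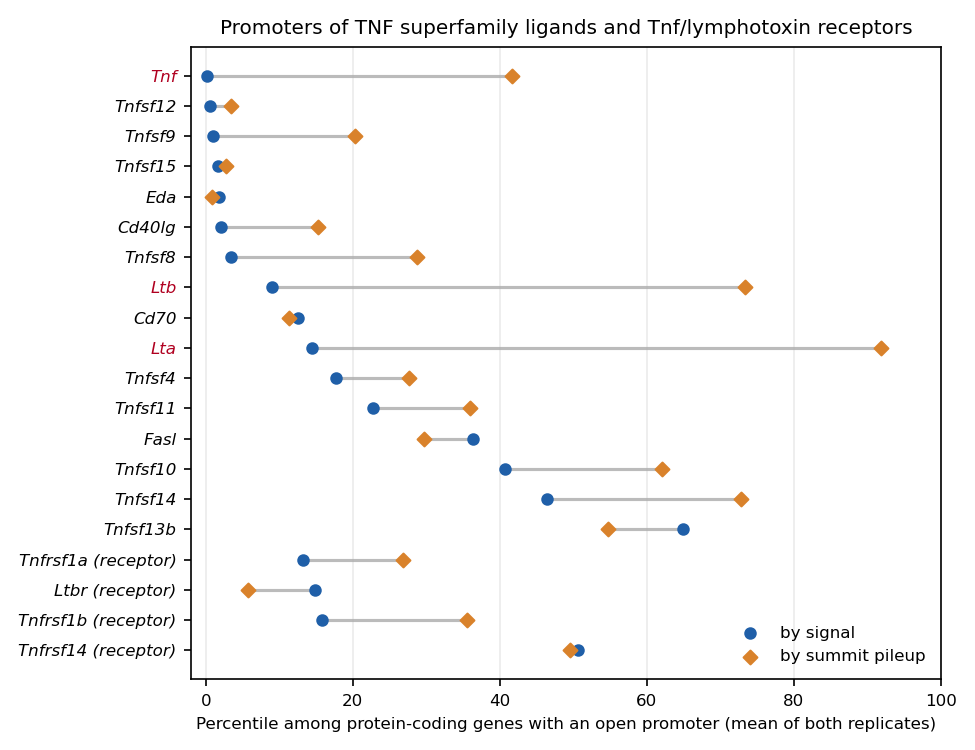
Percentile of the promoter among protein-coding genes with an open promoter (horizontal axis, mean of both replicates) by signal (circles) and by summit pileup (diamonds) for the 16 ligand and 4 receptor genes with an open promoter. The gap is widest at Lta (14.5 to 91.8), Ltb (9.05 to 73.3) and Tnf (0.149 to 41.6).

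The receptors of these ligands were open at 4 of 4 genes. Over all protein-coding genes the share was 65.9%. That value lies inside the 95% limits for the receptor list, 39.8% and 100%, so 4 genes are too few to show a difference. Tnfrsf1a and Tnfrsf1b, which encode the receptors of TNF and of the lymphotoxin-α homotrimer, had signals of 6.30 and 5.69 and of 6.45 and 6.56. Tnfrsf14, which encodes HVEM, had 10.9 and 11.6. Ltbr, which encodes the lymphotoxin-β receptor and is known mainly from stromal and myeloid cells, had 6.23 and 6.45 with a pileup of only 44 and 41, the lowest of the 4. That signal was close to that of Lta (6.02 and 6.48), whose pileup was 708 and 667, and it stood over the commonest background of 6.22 and 5.51.

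Downstream of the receptors, all 33 signalling and feedback genes had an open promoter, and so did all 10 genes that process the TNF protein or its RNA, against 65.9% of protein-coding genes. The signalling genes had a median percentile of 38.6 by signal and 82.1 by pileup. Ikbkg, which encodes the regulatory subunit of the IκB kinase, was highest by signal (17.4 and 16.8), followed, by the mean percentile, by Ikbkb, a catalytic subunit of that kinase (14.9 and 13.2), and Rbck1, a subunit of the linear ubiquitin ligase (14.2 and 13.8). Rela, Tab3 and others were close behind, and the order below Ikbkg differed between replicates. Traf1, which encodes an adaptor of TNF receptors, was lowest (4.01 and 4.16), followed by Nfkbie (5.15 and 4.90), an inhibitor of NF-kB, and Traf3 (5.41 and 5.77). Cyld, a deubiquitinase that limits the pathway, had the highest pileup of them, 1226 and 1066. Nfkbia, the inhibitor IκBα, resembled Lta among the members. Its pileup was 845 and 771 over a background of 128.15 and 116.23, and its signal was 6.55 and 6.59. At Lta the pileup was 708 and 667 over 116.83 and 102.13, and the signal 6.02 and 6.48.

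Among the processing genes Rc3h2, a Roquin protein that destabilises RNA, was highest by signal (16.7 and 15.4), followed by Adam17, which encodes the protease that sheds TNF (14.9 and 12.6), and Tia1, an RNA-binding repressor of translation (13.4 and 13.8). The order of Adam17 and Tia1 is by the mean percentile and differed between replicates. Zfp36, which encodes tristetraprolin, the protein that destabilises Tnf RNA, was lowest (3.90 and 3.91), with a pileup of 526 and 450 over a background of 134.18 and 114.28. Its relatives Zfp36l1 (4.00 and 4.21) and Zfp36l2 (6.12 and 6.26) followed.

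The cell type named by the labels was checked at promoters of marker genes. All 9 T-helper 1 markers and all 5 T cell markers were open, against 3 of 6 myeloid, 1 of 3 NK cell and 0 of 3 hepatocyte markers. Of the B cell markers Pax5 and Ebf1 were open, open myeloid ones were Cd14, Cebpa and Spi1, and the open NK marker was Klrb1c. These include the transcription factors that define B cells and myeloid cells, while Cd79a, Ms4a1, Csf1r, Lyz2, Adgre1, Ncr1 and Klra8 had no open promoter. Over all protein-coding genes the share was 65.9%. By signal the open T-helper 1 and T cell markers had median percentiles of 15.3 and 18.5. Those were below the open myeloid markers (29.2), Pax5 and Ebf1 (38.0) and Klrb1c (95.3). By pileup the T-helper 1 and T cell markers stood above all of these instead, 44.9 and 60.1 against 23.7, 34.2 and 30.1. Cd4 itself stood at 0.263 by signal and 25.37 by pileup.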

How the data were processed

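ATAC-seq of 2 biological replicates of 1 group was analysed from the lists of open regions on mm10 that the authors deposited, 1 per replicate. For aligner and peak caller, names and versions are not stated in the labels or files used here. Read totals were not used here, so depth is seen only through the pileup. Deposited columns were a score, a signal value (an enrichment with no stated reference) and −log10 p and −log10 q of each region, the authors' own values. The lowest −log10 q was 1.01 and 1.0.

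Pileup and background were solved from signal = (pileup + 1) / (background + 1) and the deposited −log10 p as a Poisson tail. That model was taken because it returned whole pileups, and the solving was checked on simulated data. Regions outside chromosomes 1 to 19, X and Y were left out. Regions of both lists were shared where they overlapped by 1 bp or more. A promoter was 1 kb on either side of a GENCODE M21 start, and where it held several shared regions, the highest of each value was used, with the background of the region of highest signal. Percentiles are over all shared regions or all open protein-coding promoters. The motif search took both strands, 100 bp on either side of the replicate 1 summit. The genes named were the members, their neighbours, the 3 highest and 3 lowest of each list by signal, genes whose role a sentence describes, and the 5 nearest to Tnf. Trac is not annotated as protein-coding and was left out, and 1 B cell marker is not reported here. Members and lists were chosen with earlier results of these data known. No test was made, since there was 1 group. Python 3.11.15, pandas 2.3.3, NumPy 2.4.6 and SciPy 1.17.1 were used. Alternatives were another overlap, flank and promoter width, the strongest 50000 regions, 1 replicate alone, other ranking values, and another motif window and summit.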

Additional observations from a re-analysis of the deposited data

How the results depend on the processing

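Of 91 alternative values, 62 stayed within their limits and 29 moved. The limits were 1.5 times for counts, 1 SD of the replicates for coverage and percentiles, and the exact interval for list shares. Some of the 62 could not have moved, so the tally does not measure robustness. Main percentiles are means of both replicates, so 1 replicate alone always lies within 1 SD. The lowest −log10 q of the window, 5.36, already passed the cut-offs of 2 and 5. For 4 of 4 receptors the exact interval ran from 39.8% to 100%. The number of shared regions in the window, 15, was 9 with the strongest 50000 regions of each list, 27 with 50 kb on either side and 10 with 10 kb. The covered share, 25.07%, was 17.73% with the strongest 50000 and 22.03% with 50 kb, and it was 23.6% with a reciprocal overlap of 50% and 23.17% to 23.42% from 1 replicate alone. The promoter percentile by signal (Tnf 0.149, Lta 14.469, Ltb 9.051) was 9.518, 69.264 and 42.025 by −log10 q or p and 41.598, 91.779 and 73.28 by pileup. With 2.5 kb on either side of the start it was 1.74 for Tnf and 7.643 for Ltb. The share of open ligands, 88.9%, was 50% with the strongest 50000 regions (all protein-coding genes 58.7%) and 72.2% where −log10 q reached 5 (64.8%). With 200 bp on either side of the summit, regions with a match numbered 12 for NFAT, 2 for AP-1, 2 for CRE-like, 2 for T-box, 3 for IRF, 4 for Sp, 8 for the CTCF core and 4 for TATA. At the summits of replicate 2 they numbered 2 for CRE-like and 0 for T-box. A wider window holds more letters and a stricter list fewer regions; for the ranking values the cause was not tested. No paired analysis was possible because there was 1 group.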
